A study of Homo sapiens with 12 samples.

Results

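The 10 genes described here hold the cell division cycle back, and they were followed across the 12 RNA-seq libraries of the series, namely the CIP/KIP inhibitors CDKN1A, CDKN1B and CDKN1C, the INK4 inhibitors CDKN2A, CDKN2B, CDKN2C and CDKN2D, the retinoblastoma gene RB1, SFN and the cyclin G2 gene CCNG2. They were chosen by name, with symbols matched to Ensembl identifiers through GENCODE v44, and they are 10 of 63677 identifiers listed. The choice was made with earlier results of these data known. The study had named CDKN1A as raised by priming and CCNG2 as lowered by CPT from its RNA-seq. By PCR assays it also reported more histone acetylation and less DNA methylation at promoters of genes raised by priming, CDKN1A among those assayed. All libraries come from MiaPaca2, an established human pancreatic cancer cell line, with 3 libraries in each of 4 groups. Con cells received the vehicle, and CPT cells received calcipotriol, a Vitamin D analogue, at 1 µM. GTA+5-Aza cells were primed with glyceryl triacetate (GTA, which supplies acetate for histone acetylation) at 2 mM and 5-Aza (which inhibits DNA methyltransferases) at 1 µM, and CPT+GTA+5-Aza cells received all 3 agents at these doses. Treatment lasted 24 h, and the 6 libraries with GTA and 5-Aza are called primed here. The study's methods describe the samples of an experiment as independent, and the labels name no culture or batch, so p-values measure the spread between these libraries.

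CDK inhibitors set the pace at which cyclin-dependent kinases drive cells from one phase of the cell cycle to the next. The CIP/KIP proteins bind cyclin-CDK complexes of several phases, whereas the INK4 proteins bind CDK4 and CDK6 and keep cyclin D away from them. CDK4 and CDK6 phosphorylate the RB1 protein, which in its unphosphorylated form holds the E2F factors that switch on genes of DNA replication. CDKN1A and SFN are known to be induced by DNA damage, CDKN1B and CCNG2 are targets of the FOXO factors, and CDKN1C is an imprinted gene. In pancreatic ductal adenocarcinoma the CDKN2A locus is among the most often lost, and MiaPaca2 is known as a line without CDKN2A.

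Since 5-Aza acts on CpG methylation, the promoters of the genes that the results turn on were read for CpG sites. The windows cover the 250 bases before the gene start in RefSeq (GRCh38.p14), which held a window for 9 of the 10 genes and none for CDKN1C. The windows printed below are on the plus strand of their chromosome, CDKN1A at chr6:36678464-36678713, SFN at chr1:26862899-26863148, CDKN1B at chr12:12717118-12717367 and CCNG2 at chr4:77156957-77157206. CpG sites are in capitals.
CDKN1A: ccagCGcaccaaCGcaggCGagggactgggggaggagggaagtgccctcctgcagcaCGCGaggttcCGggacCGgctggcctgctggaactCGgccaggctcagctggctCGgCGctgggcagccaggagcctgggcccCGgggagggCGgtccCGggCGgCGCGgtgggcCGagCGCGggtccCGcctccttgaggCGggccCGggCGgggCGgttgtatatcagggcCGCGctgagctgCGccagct
SFN: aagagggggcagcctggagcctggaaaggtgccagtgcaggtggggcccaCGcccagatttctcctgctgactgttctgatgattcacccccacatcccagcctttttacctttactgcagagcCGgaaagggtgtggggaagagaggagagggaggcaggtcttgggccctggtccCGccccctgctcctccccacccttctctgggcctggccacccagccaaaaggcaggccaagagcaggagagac
CDKN1B: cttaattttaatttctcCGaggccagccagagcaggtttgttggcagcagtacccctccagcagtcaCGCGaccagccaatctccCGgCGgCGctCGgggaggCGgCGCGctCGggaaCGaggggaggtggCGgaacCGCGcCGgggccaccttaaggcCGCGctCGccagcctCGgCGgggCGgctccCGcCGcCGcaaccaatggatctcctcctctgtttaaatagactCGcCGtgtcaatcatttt
CCNG2: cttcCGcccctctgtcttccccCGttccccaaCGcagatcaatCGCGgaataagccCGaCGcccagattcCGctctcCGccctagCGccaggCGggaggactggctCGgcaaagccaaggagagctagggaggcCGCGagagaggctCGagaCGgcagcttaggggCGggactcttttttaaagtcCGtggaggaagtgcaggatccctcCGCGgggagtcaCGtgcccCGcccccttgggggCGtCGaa

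The CDKN1A window held 27 CpG sites and the SFN window 3, beside a median of 11 over the 35116 promoter windows of the table, so the CpG content of these 2 windows lay on either side of the median. CDKN1B also had 27 and CCNG2 24, and the other inhibitor genes had 33 (CDKN2D), 20 (CDKN2A), 18 (CDKN2B) and 10 (CDKN2C). The GC box GGGCGG, searched on both strands, occurred 4 times each in CDKN1A and CCNG2, while SFN and CDKN1B had 1 each. At least 1 GC box was found in 42.6% and at least 3 in 13.9% of all windows. The DR3 element, the direct repeat bound by the vitamin D receptor, was found in 0.065% of all windows and in none of these 9. For 8 of the 9 genes the RefSeq start is the first base of the canonical transcript in GENCODE v44. Longer transcripts start further upstream in CDKN1A (by 2254 bases), CDKN1B (31870), CDKN2A (20444), CDKN2C (9500) and CDKN2D (80), so these windows lie inside the annotated gene. The RB1 window is the exception, 172699 bases past the canonical start, and held 0 CpG sites and no GC box.

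The 12 libraries held 16162490 to 21224665 counts. In a principal component analysis the first component (51.7% of the variance) separated primed from unprimed libraries, and CPT 2 and CPT 3 lay at the opposite ends of the second (12.5%). Of 9 ductal and epithelial markers, KRT8, KRT18, KRT19 and SOX9 were abundant, while EPCAM, CDH1 and GATA6 had 0 to 6 counts in every library. Of 17 markers of other cell types, 9 were at 0 in all libraries, and the summed level of the list was 85.7 to 101 CPM (read counts scaled to a common library size with TMM factors) in unprimed and 102 to 127 CPM in primed libraries, nearly all of it from COL3A1. Their part in the results below was not tested.

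Of the 10 genes 8 had counts, and all 8 entered the test. Per kilobase of the canonical transcript, CDKN2C was the most abundant in Con, at 38.8 ± 4.0 CPM per kb (SD, n = 3), followed by CDKN1B at 25.6 ± 2.1 and RB1 at 18.0 ± 2.1. CDKN2D at 7.85 ± 1.10 CPM per kb and CDKN1C at 4.98 ± 0.48 formed a middle range, and CCNG2 lay at 1.63 ± 0.38. SFN (0.317 ± 0.146 CPM per kb) and CDKN1A (0.254 ± 0.127) were lowest, and these 2 did not differ beyond their spread. With the merged exons of all transcripts as the length, the order of the abundant genes changed, with RB1 at 13.3, CDKN2C at 12.8, CDKN2D at 7.43 and CDKN1B at 6.66 CPM per kb, since merging lengthens CDKN2C from 0.995 to 3.02 kb and CDKN1B from 2.41 to 9.26 kb. In bulk RNA, fewer cells with a transcript and less of it per cell cannot be told apart.

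**Figure D1:**
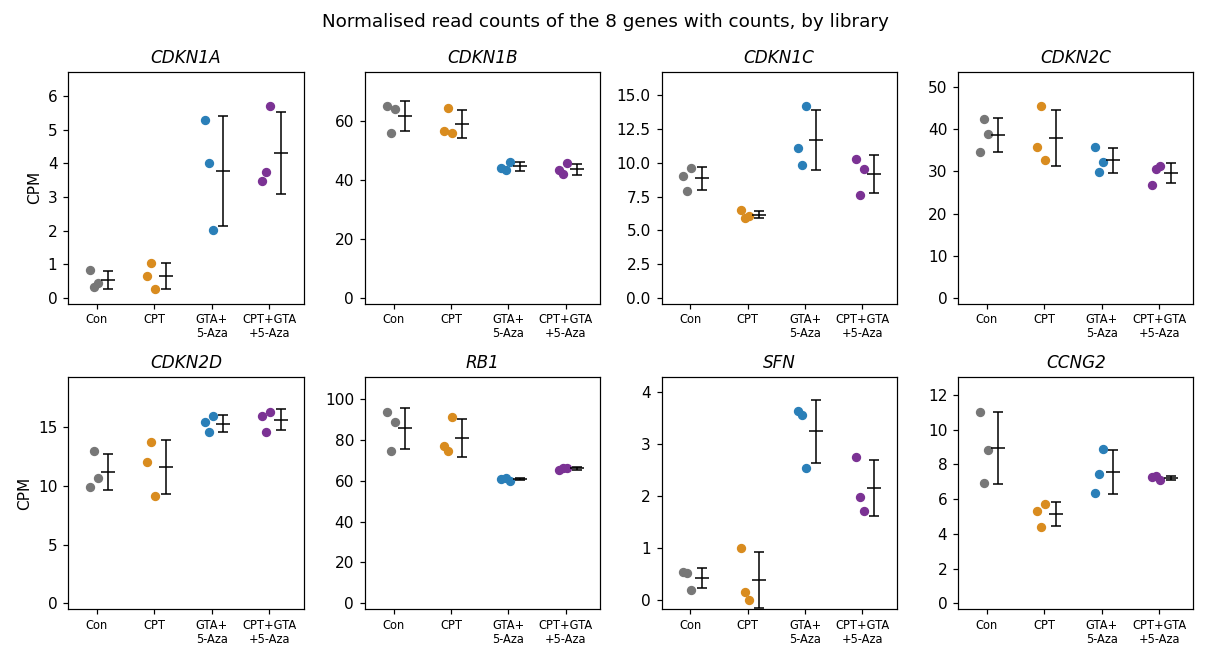
CPM of each gene in each library (points, coloured by group) with the group mean ± SD (black, n = 3); the y axis is linear. CDKN1A and SFN were at 1.03 CPM or less in all unprimed libraries and at 1.71 to 5.69 CPM in all primed ones, while RB1 and CDKN1B were lower in every primed library than in any unprimed one.

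The first question was how epigenetic priming moved these genes in the absence of CPT (GTA+5-Aza against Con) and in its presence (CPT+GTA+5-Aza against CPT). CDKN1A, CDKN2D and SFN rose and CDKN1B and RB1 fell in both comparisons, and the same 5 passed between CPT+GTA+5-Aza and Con. In runs with a library left out, CDKN2D failed in 4 or 5 of 6 for each comparison. RB1 failed in 4 of 6 for CPT+GTA+5-Aza against CPT. A gene is called where its p from the quasi-likelihood test of edgeR, adjusted by Benjamini-Hochberg over 17123 tested genes, is under 0.05. Without CPT, 5 of the 8 passed, 3 higher and 2 lower, where 17.5% of all tested genes passed, 9.95% higher and 7.53% lower. With CPT, 7 of the 8 passed, 4 higher and 3 lower, where the background was 17%, made up of 9.57% higher and 7.39% lower. Between CPT+GTA+5-Aza and Con, a comparison that shares its primed libraries with the second and its controls with the first, 6 of the 8 passed, 3 higher and 3 lower, beside 16.8% of all genes (9.62% higher and 7.16% lower). The median log2 fold change of the 8 was 0.08 and that of all tested genes 0.01 in the first comparison, 0.46 and 0.01 in the second, and -0.13 and 0.01 in the third. Because the genes were chosen with earlier results of these data known, these counts are a description and no test of the set. SFN, which entered the test through its primed libraries, is among the genes counted. Without it 4 of 7 passed in the first comparison (2 higher, 2 lower), 6 of 7 in the second (3 and 3) and 5 of 7 in the third (2 and 3). In the second comparison the number of members called fell from 7 to 4 without CPT 3 or CPT+GTA+5-Aza 2, and to 3 without CPT+GTA+5-Aza 1 or CPT+GTA+5-Aza 3.

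**Figure D2:**
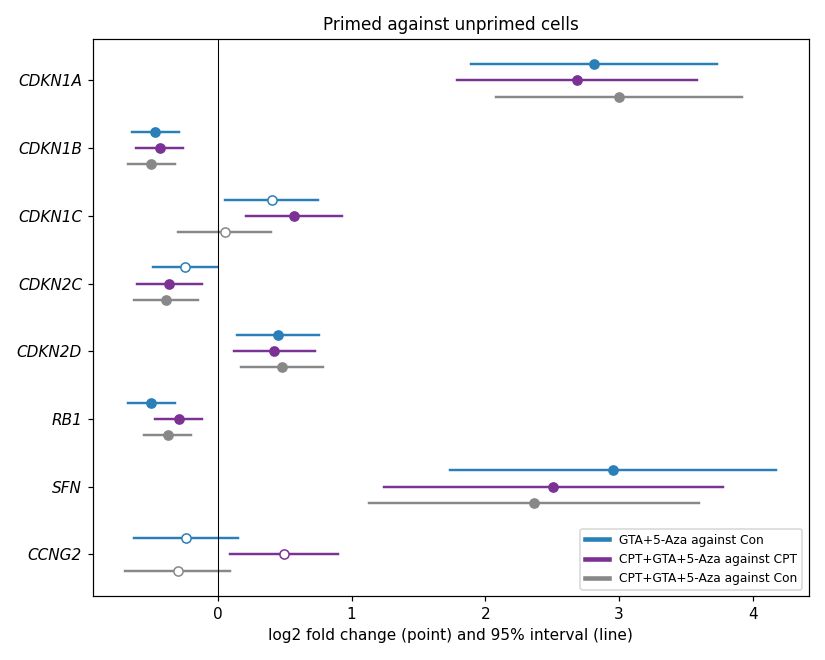
Log2 fold change of each gene (points) with its 95% interval (lines) in the 3 comparisons of primed with unprimed cells; filled points were called and open points were not. CDKN1A and SFN lie at 2.36 or more, and the other 6 genes lie between -0.50 and 0.57. SFN entered the test through its primed libraries, so its filled points are no test of its rise.

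CDKN1A (ENSG00000124762, chr6:36676460-36687337, plus strand) encodes p21, the inhibitor that stops cells after DNA damage. It had 16, 7 and 9 counts in Con and 12, 21 and 5 in CPT, against 99, 80 and 36 in GTA+5-Aza and 66, 66 and 93 in CPT+GTA+5-Aza. Every primed library was above every unprimed one, and GTA+5-Aza 3 was the lowest of the primed libraries. The mean level went from 0.538 ± 0.268 CPM in Con to 3.78 ± 1.64 CPM in GTA+5-Aza (SD, n = 3), a 7.04-fold increase with a 95% interval of 3.72 to 13.3 (adjusted p = 6.55e-05, edgeR). In the presence of CPT the increase was 6.44-fold, from 0.655 ± 0.380 to 4.31 ± 1.21 CPM (interval 3.45 to 11.99, adjusted p = 8.42e-05, edgeR). CDKN1A passed in every run that left out a library, with log2 fold changes of 2.49 to 3.27 in the first comparison. An antisense lncRNA, DINOL, shares 146 exonic bases with CDKN1A in GENCODE v44, and reads of both cannot be told apart without strand.

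CDKN1B (ENSG00000111276, chr12:12685498-12722369, plus strand) encodes p27, which binds cyclin E-CDK2 in resting cells. It ran the other way. Con libraries had 65.1, 55.9 and 64.1 CPM and CPT libraries 56.8, 64.6 and 56.1, whereas GTA+5-Aza had 44.2, 43.5 and 46.4 and CPT+GTA+5-Aza 43.4, 42.1 and 45.7. Primed and unprimed libraries did not overlap. CDKN1B fell by 27.6% in GTA+5-Aza against Con (log2 fold change -0.47, SE 0.09, adjusted p = 0.000377, edgeR) and by 26.1% with CPT (-0.44, SE 0.09, adjusted p = 0.000849, edgeR). Both calls held with each library left out.

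CDKN1C (ENSG00000129757, chr11:2883213-2885775, minus strand) encodes p57, the third inhibitor of the family. It had 9.04, 7.91 and 9.58 CPM in Con and 6.49, 5.95 and 6.06 CPM in CPT. In GTA+5-Aza it had 11.1, 9.87 and 14.2 CPM, and in CPT+GTA+5-Aza 10.3, 7.61 and 9.55 CPM. The 3 CPT libraries were the lowest of all 12, and the CPT+GTA+5-Aza libraries overlapped with Con. CDKN1C rose 1.49-fold in CPT+GTA+5-Aza against CPT (interval 1.16 to 1.91, adjusted p = 0.0246, edgeR), and was not called in GTA+5-Aza against Con (1.32-fold, adjusted p = 0.103, edgeR) or between CPT+GTA+5-Aza and Con (1.04-fold, adjusted p = 0.888, edgeR). The CDKN1C transcript has 63.8% GC. When each library's trend with GC content was removed, the call in CPT+GTA+5-Aza against CPT was lost (log2 fold change 0.37, adjusted p = 0.146, edgeR), and it was also lost in 3 of 6 runs that left out a library, those without CPT 3, CPT+GTA+5-Aza 1 or CPT+GTA+5-Aza 3 (highest adjusted p = 0.123, edgeR).

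Taken as a family per kilobase of canonical transcript, CDKN1A contributed 0.810 ± 0.359% of the CIP/KIP transcripts in Con and 6.69 ± 2.98% in GTA+5-Aza, and with merged exons 1.70 ± 0.75% and 11.8 ± 5.2%. CDKN1B was the most abundant of the 3 per kilobase of canonical transcript, at 18.5 ± 0.6 CPM per kb in GTA+5-Aza against 6.59 ± 1.25 for CDKN1C and 1.78 ± 0.77 for CDKN1A. With merged exons CDKN1B and CDKN1C were close in GTA+5-Aza, at 4.82 and 4.71 CPM per kb. The summed level of the 3 genes was 30.8 ± 2.6 CPM per kb in Con, 28.3 ± 2.0 in CPT, 26.9 ± 1.3 in GTA+5-Aza and 25.3 ± 1.8 in CPT+GTA+5-Aza. With merged exons as the length the sums were 10.4, 9.09, 10.8 and 9.85 CPM per kb, with no order of primed and unprimed groups, so the direction of the sum depended on the length used.

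Among the INK4 genes only CDKN2C and CDKN2D had counts. CDKN2C (ENSG00000123080, chr1:50960745-50974634, plus strand; p18) had 34.5, 42.4 and 38.9 CPM in Con and 35.9, 45.4 and 32.6 CPM in CPT. It had 35.9, 29.9 and 32.2 CPM in GTA+5-Aza and 26.9, 30.7 and 31.2 CPM in CPT+GTA+5-Aza. The CPT+GTA+5-Aza libraries were all below those of Con and CPT, whereas GTA+5-Aza overlapped with Con. CDKN2C fell by 22.2% in CPT+GTA+5-Aza against CPT (adjusted p = 0.0332, edgeR) and by 23.5% against Con (adjusted p = 0.0226, edgeR), and its log2 fold change in GTA+5-Aza against Con was -0.24 (adjusted p = 0.16, edgeR). The call against CPT was lost in 4 of 6 runs that left out a library, and without CPT 2, the highest library, the value was -0.22 in place of -0.36 (adjusted p = 0.189, edgeR). The other 3 were the runs without CPT+GTA+5-Aza 1, 2 or 3. The call against Con was lost in 3 of 6 runs, those without Con 2, Con 3 or CPT+GTA+5-Aza 1 (highest adjusted p = 0.119, edgeR). With the GC trend removed, GTA+5-Aza against Con passed as well (-0.40, adjusted p = 0.00289, edgeR).

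CDKN2D (ENSG00000129355, chr19:10566460-10569059, minus strand), which encodes p19, moved opposite to CDKN2C. It had 9.94, 13.0 and 10.7 CPM in Con, 12.04, 13.7 and 9.17 in CPT, 15.4, 14.6 and 16.0 in GTA+5-Aza and 16.0, 14.6 and 16.3 in CPT+GTA+5-Aza. All 6 primed libraries were above all 6 unprimed ones. It rose 1.37-fold in GTA+5-Aza against Con (interval 1.11 to 1.69, adjusted p = 0.0349, edgeR), 1.34-fold in the presence of CPT (adjusted p = 0.0497, edgeR) and 1.40-fold between CPT+GTA+5-Aza and Con (adjusted p = 0.025, edgeR). These calls were near the threshold. With the GC trend removed (its transcript has 61.2% GC) the log2 fold changes were 0.26, 0.25 and 0.31, and none of the 3 passed (adjusted p = 0.167, 0.191 and 0.103, edgeR). With a library left out, the call in GTA+5-Aza against Con was lost in 4 of 6 runs (Con 1, Con 3, GTA+5-Aza 1 or GTA+5-Aza 3, highest adjusted p = 0.159, edgeR). The call of CPT+GTA+5-Aza over Con was also lost in 4 of 6 (Con 1, Con 3, CPT+GTA+5-Aza 1 or CPT+GTA+5-Aza 3, highest adjusted p = 0.124, edgeR). The call over CPT was lost in 5 of 6, all but the run without CPT 2, and without CPT 3 the value was 0.27 (adjusted p = 0.251, edgeR). CDKN2D made up 16.8 ± 0.8% of the INK4 transcripts per kilobase of canonical transcript in Con and 24.8 ± 1.4% in GTA+5-Aza, and with merged exons 36.7 ± 1.3% and 48.6 ± 1.9%.

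CDKN2A (ENSG00000147889, chr9:21967752-21995301) and CDKN2B (ENSG00000147883, chr9:22002903-22009305), neighbours on the minus strand of 9p21 that encode p16 and p15, had 0 counts in each of the 12 libraries, among 227029110 counts in all. A count of 0 allows up to 3 counts, or 0.143 to 0.184 CPM depending on the library, and this limit covers counting error only. CDKN2A also encodes ARF from another reading frame, and the counts per gene include its transcripts. The absence of counts was shared with the neighbours. From FOCAD to DMRTA1 (chr9:20658309-22455740), 23 consecutive protein-coding genes over 1.8 Mb had 0 counts in every library. Of these, 16 are interferon genes, which cells make on viral infection, and the others include MTAP, the methionine salvage enzyme next to CDKN2A, KLHL9 and HACD4.

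The first genes with at least 100 counts in each library were RPS6 on one side and CAAP1 on the other, 7.46 Mb apart. RPS6, a ribosomal protein gene, had a mean of 642 CPM and CAAP1 22.0 CPM. Of the 29 protein-coding genes between them, 25 were at 0 in every library and 4 had counts, at most 44 in a library. ACER2 had 12 to 44 counts, SLC24A2 0 to 11, ELAVL2 0 to 10 and MLLT3 0 to 4. The antisense RNA CDKN2B-AS1, which shares 593 exonic bases with CDKN2A, was at 0 too. Whether the DNA of the interval is present in these cells was not tested.

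**Figure D3:**
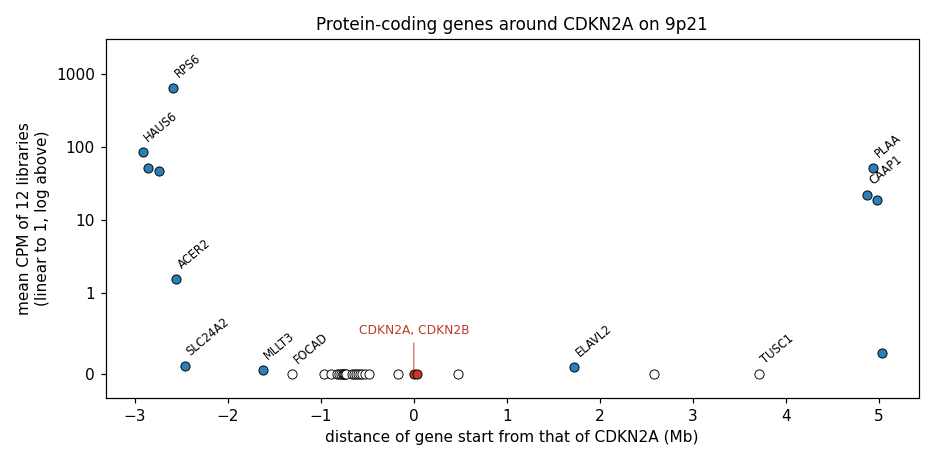
Mean CPM of the 12 libraries (y axis, linear to 1 and logarithmic above) for protein-coding genes, placed by the distance of their start from that of CDKN2A in Mb; white points are at 0 in every library and red points are CDKN2A and CDKN2B. From FOCAD to DMRTA1 all 23 genes are at 0, between RPS6 at 642 CPM and CAAP1 at 22.0 CPM.

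RB1 (ENSG00000139687, chr13:48303744-48599436, plus strand), the pocket protein that the INK4 genes act through, had 93.9, 74.6 and 88.7 CPM in Con and 77.0, 74.4 and 91.4 CPM in CPT. It had 61.0, 61.2 and 60.1 CPM in GTA+5-Aza and 65.3, 66.4 and 66.5 CPM in CPT+GTA+5-Aza. All primed libraries were below all unprimed ones, and the primed groups had SDs of 0.566 and 0.676 CPM against 10.0 and 9.15 CPM in Con and CPT. RB1 fell by 29.1% in GTA+5-Aza against Con (adjusted p = 0.000196, edgeR), and it fell by 18.4% in CPT+GTA+5-Aza against CPT (adjusted p = 0.0197, edgeR). Between CPT+GTA+5-Aza and Con it fell by 22.9% (adjusted p = 0.00312, edgeR). Both calls against Con held with each library left out. The call against CPT was lost in 4 of 6 such runs, those without CPT 3 (log2 fold change -0.20 in place of -0.29, adjusted p = 0.127, edgeR) or without CPT+GTA+5-Aza 1, 2 or 3 (-0.28, -0.30 and -0.30). The 3 CPT+GTA+5-Aza libraries lay above the 3 GTA+5-Aza libraries, but the difference of 8.72% did not pass (unadjusted P = 0.18, edgeR).

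SFN (ENSG00000175793, chr1:26863149-26864456, plus strand, a single exon) encodes stratifin, an adaptor protein that retains CDC25 and cyclin B-CDK1 in the cytoplasm. It had 10, 11 and 4 counts in Con and 18, 3 and 0 in CPT, against 68, 71 and 45 in GTA+5-Aza and 52, 35 and 28 in CPT+GTA+5-Aza. The primed libraries were all above the unprimed ones. SFN reached the minimum level of the filter on low counts (0.535 CPM) in 1 of 6 unprimed libraries and in all primed ones, so it entered the test through its primed libraries and its p in that test is not given. Its level was 7.74-fold in GTA+5-Aza against Con (interval 3.32 to 18.0), 5.69-fold in CPT+GTA+5-Aza against CPT (2.37 to 13.7) and 5.14-fold between CPT+GTA+5-Aza and Con (2.18 to 12.1). The intervals come from that same test, so they are no test of the rise in these comparisons. With no filter on low counts, over all 32000 genes with a count, SFN rose in each of these comparisons (adjusted p = 6.01e-08, 2.06e-05 and 4.39e-05, edgeR). These were the smallest adjusted p of SFN among the alternative runs. In every other run SFN entered through its primed libraries, so the p of those runs are not given either. The value against CPT rested on CPT 1, since without it the log2 fold change was 4.69 in place of 2.51, with 3 and 0 counts left in the control group.

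CCNG2 (ENSG00000138764, chr4:77157207-77433388, plus strand) encodes cyclin G2, an unconventional cyclin that is found in cells leaving the cycle. It had 11.04, 6.91 and 8.85 CPM in Con, 5.33, 4.38 and 5.73 in CPT, 6.36, 7.46 and 8.86 in GTA+5-Aza and 7.29, 7.32 and 7.10 in CPT+GTA+5-Aza. The CPT libraries were the lowest of all 12, and the other 3 groups overlapped. Priming did not pass with vehicle (log2 fold change -0.24, 95% interval -0.63 to 0.15, adjusted p = 0.44, edgeR) or with CPT (0.49, interval 0.09 to 0.90, adjusted p = 0.0874, edgeR). With the GC trend removed the latter did pass (0.53, adjusted p = 0.0451, edgeR).

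The second question was whether CPT moved these genes, alone or on top of priming. No gene passed the adjusted threshold in CPT against Con (0% of all tested genes in edgeR), in CPT+GTA+5-Aza against GTA+5-Aza (0%) or in the difference between these responses (0%). At an unadjusted P under 0.05, 2 of the 8 were reached in CPT against Con, where 4.28% of all tested genes were, 1 in CPT+GTA+5-Aza against GTA+5-Aza (background 2.71%) and 1 in the difference (background 2.63%). CCNG2 fell below Con without overlap in CPT, by a log2 fold change of -0.79 (SE 0.19, unadjusted P = 0.000358, adjusted p = 0.701, edgeR), and stood at rank 8 of the tested genes by p. It also met the fold change above 1.5 with an unadjusted P under 0.05 that the study used, as did 1.83% of all tested genes. The study had named CCNG2 as lowered by CPT from these same libraries. Its P and rank, and the count of genes reached, are therefore a description and no test. In primed cells its log2 fold change was -0.06 (interval -0.46 to 0.33), and the difference between the responses was 0.73 (interval 0.17 to 1.29, unadjusted P = 0.0124, adjusted p = 1, edgeR).

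In CCNG2 and CDKN1C all CPT libraries lay below Con. How many of all tested genes did so was not counted, so this is a description. CDKN1C had a log2 fold change of -0.52 in unprimed cells (SE 0.17, unadjusted P = 0.00613, adjusted p = 0.998, edgeR). In primed cells CPT moved it by -0.35 (SE 0.17, unadjusted P = 0.0474, adjusted p = 1, edgeR), with overlap of the groups, and the difference of the responses was 0.17 (interval -0.33 to 0.67). For the genes with the largest priming response, CPT gave a log2 fold change of 0.31 for CDKN1A (interval -0.74 to 1.37) and -0.15 for SFN (-1.59 to 1.30) in unprimed cells. In primed cells the values were 0.18 for CDKN1A (-0.58 to 0.95) and -0.59 for SFN (-1.64 to 0.46). The counts of both genes were low, and these intervals are wide. For CDKN1B, CDKN2C, CDKN2D and RB1 the log2 fold changes with CPT lay between -0.14 and 0.12 in both settings, and their intervals lay within -0.39 to 0.37.

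**Figure D4:**
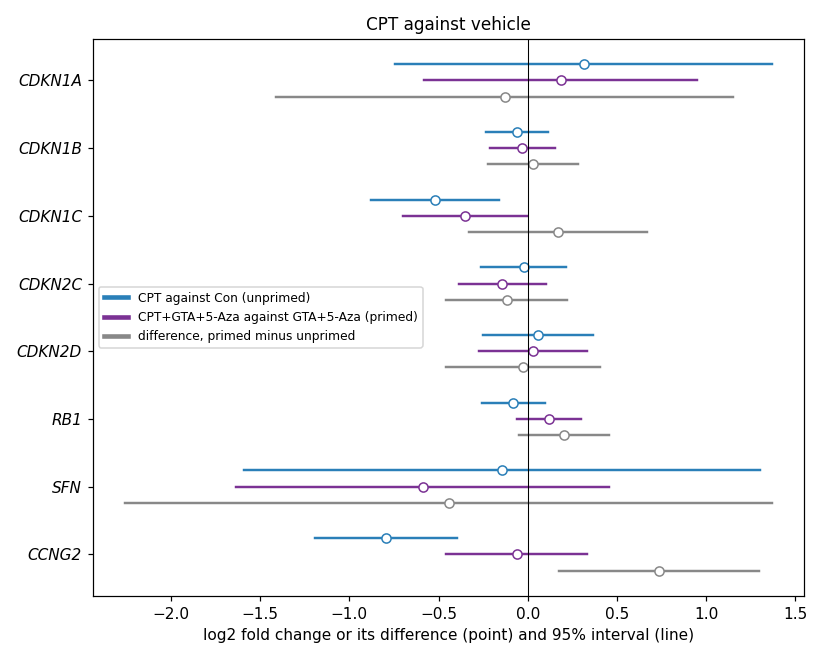
Log2 fold change of each gene with CPT (points) and its 95% interval (lines) in unprimed and primed cells, and the difference between these responses; all points are open because none was called. CCNG2 lies at -0.79 in unprimed and -0.06 in primed cells, and CDKN1C at -0.52 and -0.35.

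Among 38 genes of the cell cycle machinery that these inhibitors act on (cyclins, CDKs, E2F factors, CDC25 phosphatases and ubiquitin ligase subunits), 36 were tested. In the absence of CPT, priming raised 6 and lowered 8 of them, and in its presence it raised 4 and lowered 8, with medians of -0.07 and -0.10 on the log2 scale beside 0.01 for all genes. Over all tested genes 9.95% were higher and 7.53% lower without CPT, and 9.57% and 7.39% with it. In both, 12 passed, 4 higher and 8 lower, and 0 passed in opposite directions. The share of all tested genes that passed in both, or with the same sign, was not counted. The cyclins CCNB1 and CCNA2 fell together with CDC25B. CCNB1, the partner of CDK1 at entry into mitosis, fell from 415 to 428 CPM in Con to 313 to 333 CPM in GTA+5-Aza (log2 fold change -0.39, adjusted p = 4.65e-06, edgeR), and by -0.42 in the presence of CPT. CCNA2, which serves S phase and mitosis, changed by -0.28 (adjusted p = 0.00225, edgeR) and -0.40, and CDC25B, the phosphatase that activates CDK1, by -0.28 and -0.24.

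CDK1 itself rose, by 0.26 (adjusted p = 0.00637, edgeR) and 0.22 on the log2 scale, as did PKMYT1, the kinase that holds CDK1 inactive, by 0.36 (adjusted p = 0.00132, edgeR) and 0.34. These changes were all smaller than 1.5-fold. Between CPT+GTA+5-Aza and Con, 6 genes of the list were higher and 6 lower, and with CPT against vehicle 0 of the 36 had even an unadjusted P under 0.05 in unprimed or primed cells.

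Of 30 genes of the response to DNA damage and stress, 29 were tested, and the rise of CDKN1A and SFN was not shared by most of them. Priming raised 3 and lowered 4 in the absence of CPT, raised 3 and lowered 3 in its presence, and 2 were higher and 4 lower between CPT+GTA+5-Aza and Con, with list medians of 0.04, 0.05 and -0.01 on the log2 scale. These are 7, 6 and 6 of 29, beside 17.5%, 17% and 16.8% of all tested genes. TNFRSF10B, the death receptor DR5, rose by 0.46 (adjusted p = 0.000109, edgeR) and 0.32, and GADD45A, a stress gene that inhibits CDK1, by 0.46 (adjusted p = 0.0314, edgeR) and 0.52. TP63, a transcription factor of stratified epithelium, changed by -0.49 (adjusted p = 5.03e-05, edgeR) and -0.50, PLK2 by -0.32 and -0.28, and CCNG1, the paralogue of CCNG2, by -0.21 and -0.25.

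The FOXO list held the FOXO factors and genes they control, of which 13 of 17 were tested. With and without CPT, priming raised 4 and lowered 2, the same 6 genes, and between CPT+GTA+5-Aza and Con 4 were higher and 3 lower. The list medians were 0.38, 0.11 and 0.21 on the log2 scale, beside 0.01 for all genes, and 17.5%, 17% and 16.8% of all tested genes passed. FOXO4 went from 2.00, 3.24 and 3.21 CPM in Con to 5.72, 6.31 and 5.81 CPM in GTA+5-Aza (log2 fold change 1.07, adjusted p = 0.00317, edgeR) and rose by 0.88 with CPT. KLF2, a zinc finger factor known for keeping lymphocytes and endothelium at rest, rose by 0.52 (adjusted p = 0.000252, edgeR) and 0.57. CITED2 (-0.28 and -0.33) and KLF6 (-0.23 and -0.22) fell, as did CDKN1B, a known FOXO target, while CCNG2, another, did not pass.

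**Figure D5:**
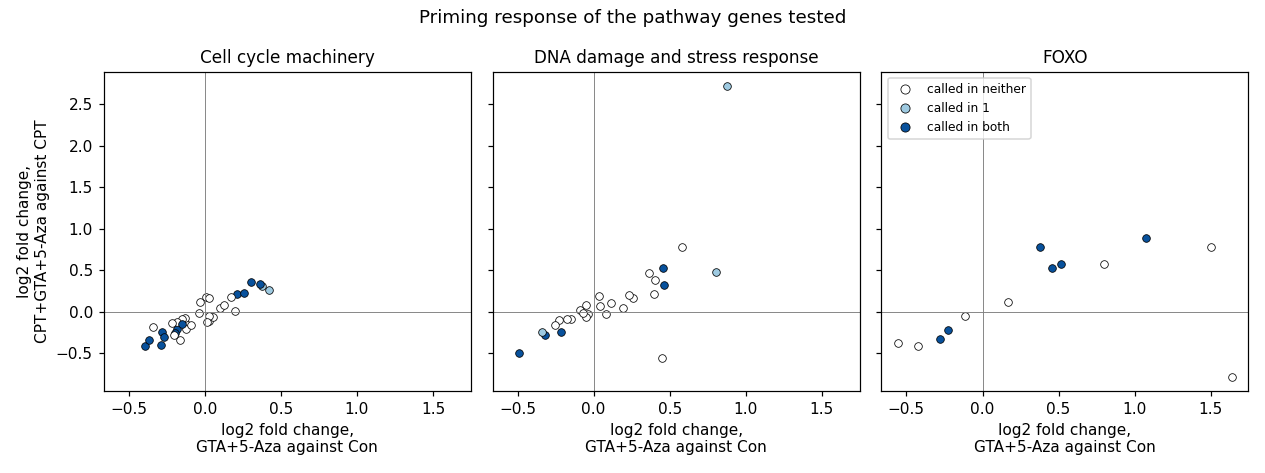
Log2 fold change of each tested gene of the cell cycle, damage response and FOXO lists in GTA+5-Aza against Con (x axis) and in CPT+GTA+5-Aza against CPT (y axis), which share no library; dark points were called in both comparisons. The 12, 5 and 6 genes that passed in both all have the same sign on both axes. How often this holds over all tested genes was not counted.

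The genes whose log2 CPM most resembled that of the members called in both priming comparisons were listed by Pearson correlation over the 12 libraries, which mainly reflects the step between primed and unprimed groups. For CDKN1A they were PLEKHA1 (r = 0.966), CDS2 (0.962) and PXYLP1 (0.959), and for SFN they were PGF (0.960), EXO1 (0.954) and WT1 (0.952). CDKN1B was most like HERC2 (0.965), STAT3 (0.964) and ENSG00000132142 (0.964), and RB1 most like TRIM24 (0.972), PCF11 (0.971) and TUG1 (0.964). For CDKN2D they were ENSG00000269318 (0.968), DDX11 (0.966) and CBX6 (0.965). The same 12 libraries enter every one of these values, so they are a description.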

How the data were processed

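The 12 RNA-seq libraries of MiaPaca2 cells fall into 4 groups of 3, with groups and replicate numbers from the sample labels. The authors used Trim Galore for trimming, HISAT2 2.2.1 for alignment to GRCh38 and HTSeq for counting. The deposited values are raw counts, 1 per Ensembl gene, with no normalization. The annotation release and the strand setting are not given in the sources used here. No row was without a gene name. GENCODE v44 on GRCh38 held 52181 of the 63677 identifiers and 99.05% of the counts.

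Counts were tested in R 4.3.3 with edgeR 4.0.16 (TMM scaling, filterByExpr with a minimum count of 10 in 3 libraries, glmQLFit and glmQLFTest) in 1 fit of all 12 libraries, with Benjamini-Hochberg adjustment over 17123 genes. CPM used TMM-scaled library sizes. Levels per kb used the canonical transcript or merged exons. The replicate pairs of a group had a chi-square of 3.99 to 18.1 per degree of freedom, above sampling noise. Depth was 16162490 to 21224665 counts per library. Intervals and floors cover the spread between libraries or counting error only. The labels give no batch.

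The test was tried on simulated data, with 200 of 17123 genes changed in GTA+5-Aza against Con. Of these 80% were called, 62% at a fold of 1.5 and 94% at a fold of 4, and 4.8% of the calls were on unchanged genes. The changed genes were drawn above a minimum mean count in Con that CDKN1A and SFN did not reach. These rates therefore do not cover CDKN1A and SFN. The other tested members changed by less than 1.5-fold with priming, and no fold under 1.5 was simulated. Their priming responses are not covered either. Alternatives were DESeq2 1.42.0, other scalings and low-count filters, a fit of 2 groups, the replicate number as a block, subtraction of the GC content trend per library (loess over the 96.2% of tested genes with a value) and leaving out each library. The genes and lists were chosen with earlier results of these data known. Named list genes were those called in CPT+GTA+5-Aza against CPT and, in the same direction, in GTA+5-Aza against Con, at most 5 of a list by smallest p in the latter. The genes of the 9p21 interval were named after their values were seen. The interval between well-covered genes and the sums per family were also added then.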

Additional observations from a re-analysis of the deposited data

Results flagged for a closer look

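CCNG2 was the one gene of the set with an unadjusted P under 0.05 in the test of the difference between the CPT responses of primed and unprimed cells. CPT moved it by -0.79 on the log2 scale in unprimed and by -0.06 in primed cells, a difference of 0.73 with an unadjusted P of 0.0124, which did not pass adjustment over all genes (adjusted p = 1, quasi-likelihood test of edgeR, Benjamini-Hochberg). It was 0.55 without Con 1, the highest library (unadjusted P = 0.0583, edgeR), and 0.89 without Con 2. Both CPT responses enter the difference with their own vehicle group, and at this threshold 2.63% of all tested genes were reached. The study had named CCNG2 for its fall with CPT in these same libraries, so this P is a description and no test. No group of 4 or more libraries existed, so single libraries were not screened for deviation.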

How the results depend on the processing

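The calls of CDKN1A and CDKN1B in all 3 priming comparisons, and of RB1 in both comparisons with Con, held under every alternative run. SFN also passed in each run. Except in the run without a low-count filter, it entered through its primed libraries, so those runs are no check of its rise. The counts of members called stayed within 1.5 times under the other scalings, filters and fits. The counts of list genes did so with DESeq2, library size scaling, no low-count filter and the replicate block. They were rerun in no other setting. With single libraries left out, 3 to 6 members were called in CPT+GTA+5-Aza against CPT in place of 7, 4 to 6 in place of 6 between CPT+GTA+5-Aza and Con, and 4 to 5 in place of 5 in GTA+5-Aza against Con; the list counts were not rerun without single libraries. CDKN2D in CPT+GTA+5-Aza against CPT was lost with RLE scaling (adjusted p = 0.0516), no low-count filter (0.0664), a fit of 2 groups (0.0798) and the replicate block (0.0533), all in edgeR. CDKN2C there was lost with library size scaling (0.063) and a fit of 2 groups (0.0557). The causes were not tested. Deviations of same-numbered libraries from their group means had r over 0.1 in 3 of 18 pairs. Their r ran from -0.38 to 0.42 (Con 2 and CPT 2), with a median of 0.016 beside -0.014 for other pairs. With 3 libraries per group these values cannot decide whether replicate numbers pair the samples. With the replicate block 5 members passed between GTA+5-Aza and Con, and 6 passed for CPT+GTA+5-Aza beside either CPT or Con, so the block changed no call of a member but that of CDKN2D. With the GC trend removed, CDKN1C in CPT+GTA+5-Aza against Con turned to -0.15. With single libraries left out, its log2 fold change ran from -0.045 to 0.17. No value that changed sign had passed the test. In CPT against Con, CDKN1A ran from -0.19 to 0.77, CDKN2C from -0.17 to 0.075, CDKN2D from -0.080 to 0.20 and SFN from -2.33 to 0.42. In CPT+GTA+5-Aza against GTA+5-Aza, CDKN1A ran from -0.11 to 0.50, CDKN2D from -0.0055 to 0.075 and CCNG2 from -0.17 to 0.066. For the difference of the CPT responses, CDKN1A ran from -0.59 to 0.37, CDKN1B from -0.010 to 0.10, CDKN2C from -0.22 to 0.031, CDKN2D from -0.17 to 0.11 and SFN from -1.01 to 1.74. The low counts of CDKN1A and SFN in unprimed cells limit the precision of their folds.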
